A study of Mus musculus with 9 samples.

Results

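The growth genes described here are 9 genes that young olfactory sensory neurons (OSNs) use while they extend their axons. They are Gap43, Gng8, Stmn1, Stmn2, Dcx, Tubb3, Dpysl3, Dpysl5 and Crmp1, chosen by name from 24421 genes with raw counts. All 9 had raw and normalized counts, and all 9 were among the 19775 genes tested. RNA was sequenced from the entire main olfactory epithelium (MOE), the sheet in the nose where OSNs reside, of mice at postnatal day 14 that the labels give as C57BL/6. The edited zygotes were of the C57BL/6J strain, and the study describes its mouse lines as of mixed background. The animals were littermates of 1 line carrying a CRISPR-Cas9 deletion of TAAR enhancer 2, a regulatory element of the trace amine-associated receptor (Taar) gene cluster. There were 3 wild-type (WT) libraries, 3 heterozygous (het) libraries and 3 homozygous (homo) libraries, each labelled with a number from 1 to 3 whose meaning the labels do not give. The labels name no animals, but the study counts its RNA-seq samples as mice, so the spread between libraries holds differences between animals as well as technical ones.

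OSNs are born throughout life from basal progenitors in the epithelium. A newborn neuron first expresses growth proteins such as GAP43 while its axon grows to the olfactory bulb, and then loses them and gains olfactory marker protein (Omp) and the odorant transduction proteins as it matures. Axon growth depends on a growth cone at the tip and on microtubules that lengthen and shorten behind it, and the 9 genes act at these places. Gap43 encodes a membrane-bound protein of the growth cone, and Gng8 a G protein gamma subunit of young OSNs. Tubb3 encodes the neuronal class of beta-tubulin, Dcx encodes doublecortin, which binds and stabilizes microtubules, and Stmn1 and Stmn2 encode stathmins, which bind free tubulin. Dpysl3, Dpysl5 and Crmp1 encode collapsin response mediator proteins, cytosolic proteins that act in the response of growth cones to semaphorins.

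Total counts per library ranged from 20527992 to 32262005. The 9 genes together took 0.231% (WT replicate 3) to 0.331% (het replicate 1) of the counts of a library. Omp, the marker of mature OSNs, had 50264 to 60156 normalized counts (raw counts divided by the size factor of the library), so the tissue label held. Taar6, next to the deleted element, had 166, 168 and 158 normalized counts in WT, 115, 112 and 133 in het and 16.0, 15.4 and 18.7 in homo, with no overlap between genotypes. Libraries numbered 1 stood apart from the others across many genes, and WT replicate 3 was the lowest of the 9 libraries for 7 of the 9 growth genes. WT replicate 3 was the lowest for 17.0% of all genes with normalized counts that were tested. Results are therefore given with and without these libraries. Xist, the RNA of the inactive X chromosome, had 59200 to 78050 normalized counts in WT replicates 1 and 2, het replicate 2 and homo replicates 2 and 3. It had 29.7 to 49.4 in the other 4, where the Y-linked gene Ddx3y had 1484 to 2607. The libraries numbered 1 thus held 1 library with high Xist and 2 with Ddx3y, and WT replicate 3 had Ddx3y.

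All 9 genes are annotated as protein-coding (GENCODE, GRCm38). Gap43 lies on chromosome 16 (42248442 to 42340651, minus strand) and Gng8 on chromosome 7 (16891786 to 16895436, plus strand). Tubb3 is on chromosome 8 (123411424 to 123422015, plus strand), and a readthrough gene, Gm20388, overlaps it on the same strand. Dcx is on the X chromosome (143855842 to 143933311, minus strand). Stmn1 is on chromosome 4 (134468320 to 134473843, plus strand) and Stmn2 on chromosome 3 (8509360 to 8561606, plus strand). Dpysl5 (30711564 to 30799375) and Crmp1 (37241940 to 37292133) are both on the plus strand of chromosome 5, and Crmp1 overlaps Evc on the opposite strand. Of the 50-base windows in Stmn1 transcripts, 81.1% occurred in no other gene, since the pseudogene Gm11223 shares much of the sequence, so Stmn1 counts depend on how shared reads were treated. For the other members at least 99.1% of windows were unique.

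Promoters were found in RefSeq (GRCm38.p6) for 5 of the 9 genes. The 250 bases before the start are shown for 3 genes, because Dpysl5 and Gng8 had the largest differences between library numbers and Dcx differed the opposite way. Capitals mark matches to 2 motifs searched on both strands, TCCCNNGGG (the core bound by EBF factors, known as regulators of olfactory neuron genes) and TAATTA (bound by LIM homeodomain factors).
Dpysl5, chr5:30711314-30711563, plus strand: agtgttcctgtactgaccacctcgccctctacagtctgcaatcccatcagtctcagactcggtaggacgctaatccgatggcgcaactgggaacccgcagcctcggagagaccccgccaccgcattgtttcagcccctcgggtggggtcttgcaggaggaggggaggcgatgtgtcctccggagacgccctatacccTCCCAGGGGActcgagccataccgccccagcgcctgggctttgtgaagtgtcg
Dcx, chrX:143933220-143933469, minus strand: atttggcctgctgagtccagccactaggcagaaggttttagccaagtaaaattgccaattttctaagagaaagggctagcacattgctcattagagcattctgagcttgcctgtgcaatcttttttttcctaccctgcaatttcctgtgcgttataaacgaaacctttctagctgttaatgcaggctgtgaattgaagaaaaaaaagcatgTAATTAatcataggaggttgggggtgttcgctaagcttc
Gng8, chr7:16891536-16891785, plus strand: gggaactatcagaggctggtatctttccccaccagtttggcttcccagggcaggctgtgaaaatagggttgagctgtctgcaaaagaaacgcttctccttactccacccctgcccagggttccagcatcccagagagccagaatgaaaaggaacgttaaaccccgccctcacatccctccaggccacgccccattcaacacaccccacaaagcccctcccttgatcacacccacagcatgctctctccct
The Dpysl5 sequence held a pair of overlapping matches to TCCCNNGGG, starting at -53 and -52 from the start, where 5.60% of 32851 promoters of this length held at least 1. The Dcx sequence held TAATTA at -39, a motif present in 4.84% of promoters. The Gng8 sequence held neither, and nor did those of Crmp1 and Tubb3. The E-boxes CAGATG (14.4% of promoters) and CAGCTG (13.0%) were found in none of the 5. A match is a run of letters and not evidence of binding.

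Levels can be compared between genes only per length, so CPM (counts rescaled to the same total in each library) were divided by the kilobases (kb) of annotated exon. On this scale Stmn1 was the highest, at 250.9 ± 24.1 CPM per kb (SD, n = 9 libraries), followed by Tubb3 at 158 ± 28.3, Gap43 at 145 ± 33.1 and Dpysl3 at 101 ± 8.85. Stmn2 (67.5 ± 6.14), Dcx (43.9 ± 6.05) and Dpysl5 (39.6 ± 9.77) were lower, and Gng8 (18.8 ± 4.52) and Crmp1 (15.7 ± 2.75) were the lowest. The highest growth gene per kb was therefore a stathmin, and 2 of the 3 collapsin response mediator genes were among the 3 lowest. The length used joins all annotated exons of a gene (1.92 kb for Stmn1, 12.65 kb for Dcx), not those of the transcripts expressed. Before division by length, Dpysl3 (mean CPM 668) and Dcx (555) lay above Stmn1 (482). For comparison Omp was at 994 ± 53.4 CPM per kb. The order held in 9 of 9 libraries for 6 of 8 neighbouring pairs. Dcx was above Dpysl5 in 6 of 9 libraries and Gng8 above Crmp1 in 8 of 9, and in both pairs the ranges over the 9 libraries overlapped. The libraries where Dcx was below Dpysl5 were those numbered 1. Gng8 was below Crmp1 only in WT replicate 3 (12.67 against 13.42 CPM per kb).

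**Figure D1:**
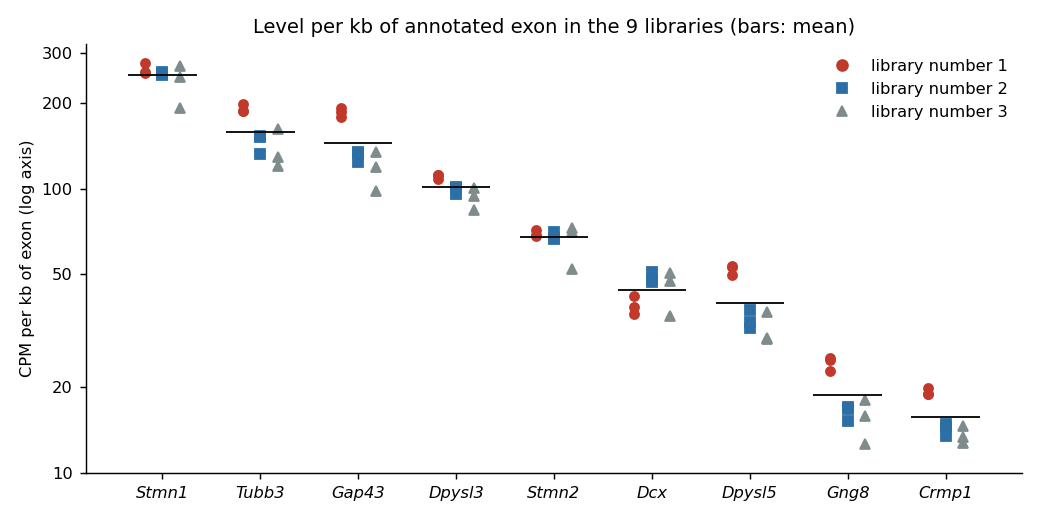
Levels of the 9 growth genes in CPM per kb of annotated exon on a log axis, 1 point per library with shape and colour giving the library number and bars giving the mean of 9 libraries. Stmn1 is at 250.9 and Crmp1 at 15.7, and the libraries numbered 1 lie above the others for Gap43, Gng8, Dpysl5, Crmp1, Tubb3 and Dpysl3.

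The first comparison asked whether the growth genes differ between mice with and without TAAR enhancer 2. None of the 9 was called in homo against WT, het against WT or homo against het. Gap43 had 7418, 4785 and 3774 normalized counts in WT replicates 1, 2 and 3, 6903, 5124 and 4631 in het, and 7106, 5158 and 5164 in homo. Each genotype held 1 high library, numbered 1, and the ranges of the genotypes overlapped. The log2 fold change of Gap43 in homo against WT was 0.13 (SE 0.25, 95% interval -0.44 to 0.71, edgeR adjusted p = 1.0). Gng8 had 976, 589 and 487 normalized counts in WT, 876, 658 and 611 in het, and 954, 644 and 693 in homo. Its libraries followed those of Gap43, and its log2 fold change in homo against WT was 0.17 (SE 0.27, interval -0.44 to 0.77).

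Among the microtubule genes, Tubb3 had 9405, 6263 and 5692 normalized counts in WT, 8836, 7232 and 6131 in het, and 8805, 7133 and 7636 in homo. Dcx had 11612, 16274 and 11353 in WT, 13345, 14968 and 16305 in het, and 12154, 15188 and 15083 in homo. The library numbered 1 was the highest of each genotype for Tubb3, whereas for Dcx it was the lowest in het and homo. The log2 fold change in homo against WT was 0.15 (SE 0.20) for Tubb3 and 0.12 (SE 0.16) for Dcx. Stmn1 had 13452, 12342 and 9310 normalized counts in WT, 12464, 12506 and 12110 in het, and 12296, 12136 and 13054 in homo. Stmn2 had 10175, 9531 and 7387 in WT, 9619, 9404 and 9994 in het, and 9653, 9965 and 10277 in homo. Both stathmin genes were lowest in WT replicate 3, and Stmn1 lay between 12110 and 13452 in the other 8 libraries. The log2 fold change in homo against WT was 0.10 (SE 0.13) for Stmn1 and 0.15 (SE 0.12) for Stmn2.

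Among the collapsin response mediator genes, Dpysl3 had 18076, 16810 and 14097 normalized counts in WT, 18708, 16940 and 15878 in het, and 18522, 15985 and 16771 in homo. Dpysl5 had 9290, 6070 and 5565 in WT, 9930, 6963 and 5540 in het, and 9841, 6312 and 6852 in homo. Crmp1 had 3369, 2417 and 2389 in WT, 3546, 2574 and 2286 in het, and 3352, 2633 and 2586 in homo. For all 3 genes the libraries numbered 1 were the highest 3 of the 9, and WT and homo overlapped. The log2 fold change in homo against WT was 0.07 (SE 0.12) for Dpysl3, 0.14 (SE 0.27) for Dpysl5 and 0.08 (SE 0.20) for Crmp1.

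**Figure D2:**
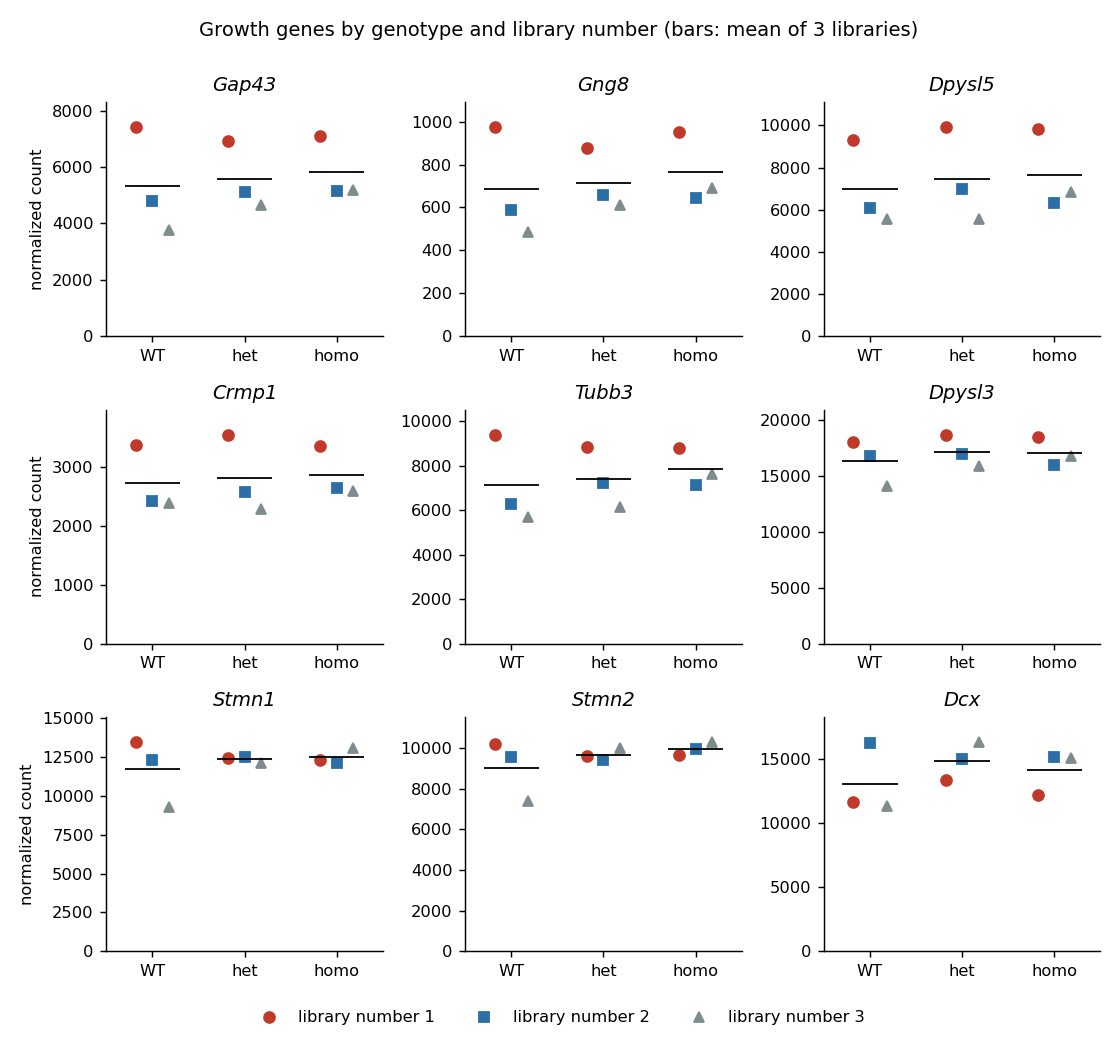
Normalized counts of each growth gene (y axis, from 0) by genotype (x axis), 1 point per library with shape and colour giving the library number and bars giving the mean of the 3 libraries. In each genotype the library numbered 1 is the highest for Gap43, Gng8, Dpysl5, Crmp1, Tubb3 and Dpysl3, and the means of the genotypes lie close together for all 9 genes.

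In homo against WT 0 of 9 growth genes passed an adjusted p of 0.05 with a fold over 1.5, where 0.0202% of all genes did, and 0 of 9 had an unadjusted p under 0.05 (3.45% of all genes). In het against WT the counts were 0 of 9 called (0.00% of all genes) and 0 of 9 at an unadjusted p under 0.05 (1.28%). In homo against het they were again 0 (0.00506%) and 0 (0.662%), and in the test for any difference between genotypes 0 (0.00506%) and 0 (1.39%). DESeq2 and limma-voom also called 0 of 9 in each comparison. The log2 fold changes lay above 0 for 9 of 9 genes in homo against WT (51.2% of all genes), with a median of 0.13 beside 0.00 for all genes tested. They lay above 0 for 9 of 9 in het against WT (47.7%), with a median of 0.07 beside -0.01, and for 8 of 9 in homo against het (51.4%), with a median of 0.04 beside 0.00. The comparisons with WT share the WT libraries, and without WT replicate 3 the median was -0.02 in homo against WT and -0.05 in het against WT. The normalized counts of homo and WT overlapped for 9 of 9 genes, where 5.56% of all genes had no overlap.

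Compared within the same library number, homo was lower than WT for 6 of 9 genes among the libraries numbered 1. It was higher for 6 of 9 among those numbered 2 and for 9 of 9 among those numbered 3. The shares of all genes for these counts were not computed. Pairing by number was not accepted for WT with homo (given under the processing below), so these counts are a description. The same limit holds for the replicate block in homo against WT. The count among those numbered 3 rests on WT replicate 3, the lowest of the 9 libraries for 7 of the 9 genes. Among the libraries numbered 1, WT had high Xist and homo had Ddx3y, and among those numbered 3 this was reversed. Genotype and sex cannot be told apart in the pairs numbered 1 and 3. Among the libraries numbered 3 the log2 differences of homo from WT ran from 0.11 (Crmp1) to 0.51 (Gng8), and Gap43 differed by 0.45. Among those numbered 1 they ran from -0.13 (Stmn1) to 0.08 (Dpysl5). A model term for the interaction of homo with library number 1 passed the test for 0 of 9 genes, with unadjusted p from 0.085 (Tubb3) to 0.831 (Dcx) and 0 of all genes called. With the library number as a replicate block, 0 of 9 were called in homo against WT (0.0152% of all genes), het against WT (0.00%) and homo against het (0.0152%). With only the libraries numbered 2 and 3, 1 of 9 had an unadjusted p under 0.05 in homo against WT (6.61% of all genes). That gene was Tubb3, with a log2 fold change of 0.31 and an edgeR adjusted p of 0.685.

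The intervals set what the 9 libraries could show. In homo against WT the 95% interval ran from 0.919-fold to 1.34-fold for Stmn2 and from 0.866-fold to 1.28-fold for Dpysl3, the narrowest. It ran from 0.738-fold to 1.71-fold for Gng8 and from 0.726-fold to 1.68-fold for Dpysl5, so a 1.5-fold rise of these genes lay within it. With a term for the libraries numbered 1 in the model, it narrowed to 0.960-fold to 1.38-fold for Gng8 and 0.964-fold to 1.28-fold for Dpysl5, and with the replicate block to 0.957-fold to 1.39-fold and 0.970-fold to 1.28-fold. A 1.5-fold rise lay outside the intervals of all 9 genes in these models. The missing calls do not show that the genes were equal in the genotypes. In bulk tissue, fewer cells of a type and less RNA per cell cannot be told apart.

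The second comparison set the 3 libraries numbered 1, 1 of each genotype, against the 6 numbered 2 and 3, with genotype in the model. It was made because these libraries were known from earlier results of these data to stand apart. Gap43, Gng8 and Dpysl5 were called higher in the libraries numbered 1. The log2 fold changes of the growth genes were graded, from -0.26 (Dcx) to 0.64 (Dpysl5), and the limits of a call cut across them. Gap43 had 7142 ± 260 normalized counts in the libraries numbered 1 (SD, n = 3) and 4773 ± 537 in the others (n = 6), so that the log2 fold change was 0.59 (SE 0.09; edgeR, adjusted p = 0.00173). Gng8 had 936 ± 52.6 and 614 ± 71.9, a log2 fold change of 0.62 (SE 0.10, adjusted p = 0.0021). Dpysl5 had 9687 ± 347 and 6217 ± 612, a log2 fold change of 0.64 (SE 0.08, adjusted p = 6.62e-04). These 3 genes, of the growth cone membrane, G protein signalling and the semaphorin response, were thus about equally higher.

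Crmp1 and Tubb3 also passed the adjusted p but lay under the 1.5-fold limit. Crmp1 had 3422 ± 108 normalized counts against 2481 ± 137, a difference of 0.47 on the log2 scale (SE 0.05, edgeR adjusted p = 5.78e-04). Tubb3 had 9015 ± 338 against 6681 ± 758, a log2 fold change of 0.44 (SE 0.09, adjusted p = 0.00536). Stmn1, Stmn2, Dpysl3 and Dcx did not pass the adjusted p in edgeR. The log2 fold change was 0.10 for Stmn1 (SE 0.10, edgeR adjusted p = 0.467) and 0.07 for Stmn2 (SE 0.09, adjusted p = 0.619). For Dpysl3 it was 0.20 (SE 0.07, adjusted p = 0.0612), although its 3 libraries numbered 1 lay above the other 6. For Dcx, with 12370 ± 886 against 14862 ± 1820 normalized counts, it was -0.26 (SE 0.10, edgeR adjusted p = 0.0888). DESeq2 gave adjusted p-values of 0.0142 for Dpysl3 and 0.0265 for Dcx, with folds under 1.5 for both. In limma-voom the adjusted p-values were 0.0357 for Dpysl3 and 0.0857 for Dcx.

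**Figure D3:**
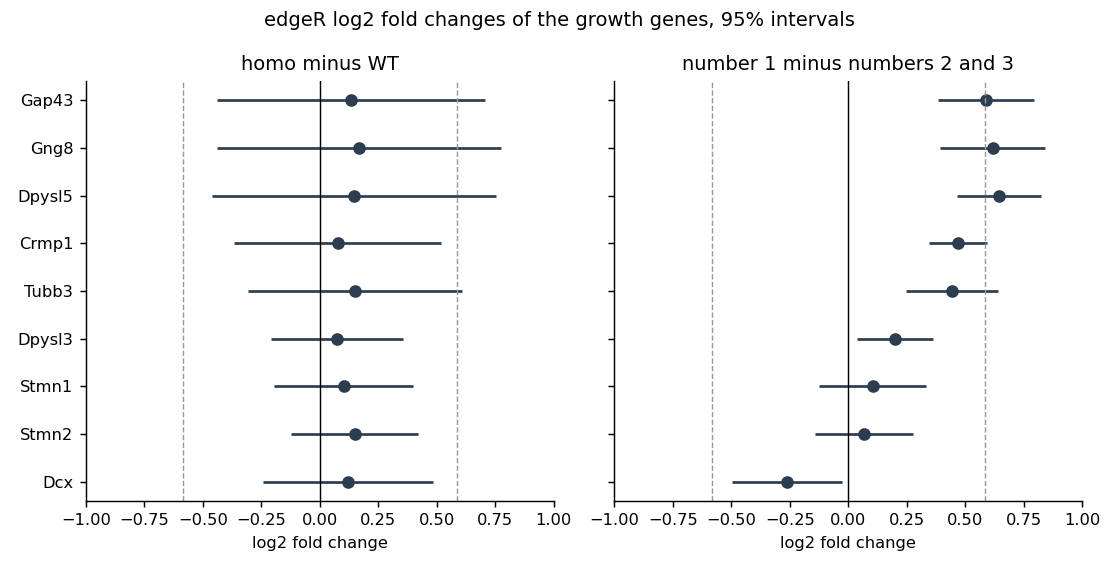
Log2 fold changes of the 9 growth genes from edgeR with 95% intervals, homo against WT on the left and libraries numbered 1 against those numbered 2 and 3 on the right, with dashed lines at 1.5-fold. Every interval on the left includes 0, and on the right Gap43 (0.59), Gng8 (0.62) and Dpysl5 (0.64) lie past the upper line while Dcx (-0.26) lies below 0.

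With both limits, 3 of 9 growth genes were called higher in the libraries numbered 1, where 5.42% of all genes were, and 0 of 9 lower (3.52% of all genes). Without the fold limit, 5 of 9 were higher (17.0% of all genes) and 0 of 9 lower (14.7%). The normalized counts of the libraries numbered 1 lay above those of all the others for 6 of 9 genes (17.9% of all genes) and below them for 0 of 9 (16.5%). The median log2 fold change was 0.44, beside -0.03 for all genes tested. Gap43 lay just past the 1.5-fold limit. Without WT replicate 1 its log2 fold change was 0.49 and that of Gng8 0.50, and without WT replicate 3 they were 0.53 and 0.56, which left Dpysl5 as the only growth gene called in either case. Between the libraries numbered 3 and those numbered 2, 0 of 9 growth genes had an unadjusted p under 0.05 (2.61% of all genes), with log2 fold changes from -0.16 (Gap43) to -0.07 (Crmp1).

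The size of the difference within each genotype is a description, since each value rests on 1 library against 2. For Gap43 the library numbered 1 was 1.73-fold the mean of the others in WT, 1.42-fold in het and 1.38-fold in homo. For Gng8 it was 1.81-fold, 1.38-fold and 1.43-fold, and for Crmp1 1.40-fold, 1.46-fold and 1.28-fold. For Dcx it was 0.841-fold, 0.853-fold and 0.803-fold, lower in each genotype. Across the 9 libraries, the number accounted for 93.3% of the variance of log2 CPM of Crmp1, 90.2% of Dpysl5, 86.0% of Gap43 and 82.5% of Gng8. It accounted for 75.0% for Tubb3, 71.1% for Dpysl3 and 47.1% for Dcx, but only 23.4% for Stmn1 and 11.4% for Stmn2. Genotype accounted for 2.27% (Crmp1) to 24.9% (Stmn2).

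Ratios within a library do not depend on its depth. The ratio of Gap43 to Omp counts, which sets a gene of immature against a gene of mature OSNs, was 0.138, 0.0904 and 0.0708 in WT, 0.130, 0.0926 and 0.0906 in het, and 0.141, 0.0857 and 0.0954 in homo. The 3 libraries numbered 1 had the highest ratios, at 0.136 ± 0.00607 against 0.0876 ± 0.00883 in the other 6 (SD). The difference was 0.64 on the log2 scale, and the two-sided exact permutation test gave p = 0.0238, the smallest it can give. After Benjamini-Hochberg adjustment over 4 comparisons the exact p was 0.0952. With these numbers of libraries no data could give an adjusted p under 0.05, so the adjusted test cannot decide. Between genotypes the ratio differed by 0.13 on the log2 scale in homo against WT (exact p = 0.7), 0.10 in het against WT (p = 0.8) and 0.03 in homo against het (p = 0.8). With 3 libraries against 3 that exact test cannot give a p under 0.1.

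The ratio of Dcx to Gap43 counts showed how far 2 growth genes parted. It was 1.57, 3.40 and 3.01 in WT, 1.93, 2.92 and 3.52 in het, and 1.71, 2.95 and 2.92 in homo. The libraries numbered 1 lay below all the others in each genotype. The ratio of Stmn1 to Stmn2 counts moved far less, from 1.21 to 1.33 over the 9 libraries.

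**Figure D4:**
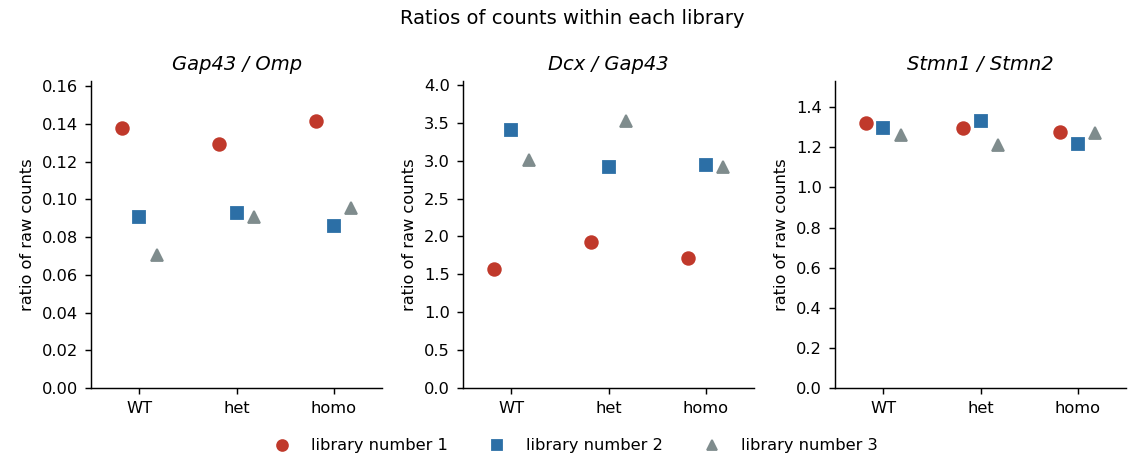
Ratios of raw counts within each library (y axes, from 0) by genotype, 1 point per library with shape and colour giving the library number. The libraries numbered 1 have the highest Gap43 to Omp ratios, from 0.130 to 0.141, and the lowest Dcx to Gap43 ratios, from 1.57 to 1.93, while Stmn1 to Stmn2 stays between 1.21 and 1.33.

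The closeness of 2 genes was measured as the root mean square (RMS) difference of their log2 CPM over the 9 libraries, each gene centred on its mean, and is a description. The closest pairs were Gap43 and Gng8 (0.0423) and the stathmin genes Stmn1 and Stmn2 (0.0441), and the farthest were Dcx and Dpysl5 (0.453). The mean profile of the 9 genes was highest in the libraries numbered 1 (0.22 in WT, 0.21 in het and 0.21 in homo, in centred log2 CPM) and lowest in WT replicate 3 (-0.37). Among 11505 other genes with a mean CPM of at least 10, the 5 nearest to this mean profile were Ndrg4 (RMS difference 0.0407), Pbx3 (0.0448), Clstn3 (0.0448), Tubb2b (0.0455) and Mapt (0.0457). Tubb2b encodes a beta-tubulin and Mapt the microtubule-associated protein tau. The 9 libraries share their depth and number across all genes, so nearness does not set these genes apart from others that follow the number.

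Other genes of the same pathways were examined as lists. Of 30 microtubule and growth cone genes, 0 were called in homo against WT and the median log2 fold change was 0.05. In the libraries numbered 1, 9 of 30 were called higher (5.42% of all genes) and 0 lower (3.52%), with a median of 0.34. The 9 were Map1a, Tuba1a, Tuba1b, Tubb4a, Tubb6, Marcks, Marcksl1, Basp1 and Nefl, of which Marcks and Basp1 encode membrane-bound growth cone proteins like GAP43. Among the 4 with the highest level, the log2 fold change was 0.38 (SE 0.09, edgeR adjusted p = 0.0114) for Map1b, a microtubule-associated protein, and 0.60 (SE 0.08, adjusted p = 7.4e-04) for Tuba1a, an alpha-tubulin. It was 0.46 (SE 0.07, adjusted p = 0.00194) for Tubb5, another beta-tubulin, and -0.06 (SE 0.07, adjusted p = 0.565) for Rufy3. Of the relatives of Dpysl5 in the list, Dpysl4 passed the adjusted p under the fold limit at 0.37 (edgeR adjusted p = 0.0234) and Dpysl2 did not pass at -0.15 (adjusted p = 0.117). Dclk1, a relative of Dcx, did not pass at 0.04 (adjusted p = 0.692).

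Of 15 other genes known from immature neurons, 0 were called in homo against WT. In the libraries numbered 1, 3 were called higher (5.42% of all genes) and 0 lower (3.52%). The median was 0.26, and 0.16 without WT replicate 1 and 0.17 without WT replicate 3. The 3 were Dbn1, Tmsb10 and Dlx5. Tmsb10, an actin-binding thymosin, had 482 to 503 CPM in the libraries numbered 1 and 183 to 242 in the others, which is 1.21 higher on the log2 scale (SE 0.09, edgeR adjusted p = 1.2e-04). Dbn1, the actin-binding drebrin, rose by 0.84 on the log2 scale (SE 0.05, adjusted p = 1.19e-04). Elavl3, a neuronal RNA-binding protein gene, passed the adjusted p under the fold limit at 0.47 (adjusted p = 0.00151), and the transcription factor gene Sox11 did not pass at 0.18 (adjusted p = 0.147). Of 16 axon guidance and adhesion genes, 0 were called in either comparison. Without the fold limit, 6 of 16 passed the adjusted p upwards (17.0% of all genes) and 1 of 16 downwards (14.7%) in the libraries numbered 1. Among the 4 most abundant the log2 fold changes were 0.41 for Ncam1, 0.36 for Ptprf, 0.24 for Plxna1 and 0.31 for Nrp2, a semaphorin receptor subunit. The single gene downwards, Plxna3, another semaphorin receptor gene, differed by -0.41 (edgeR adjusted p = 0.00522) and is named here because of its value.

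**Figure D5:**
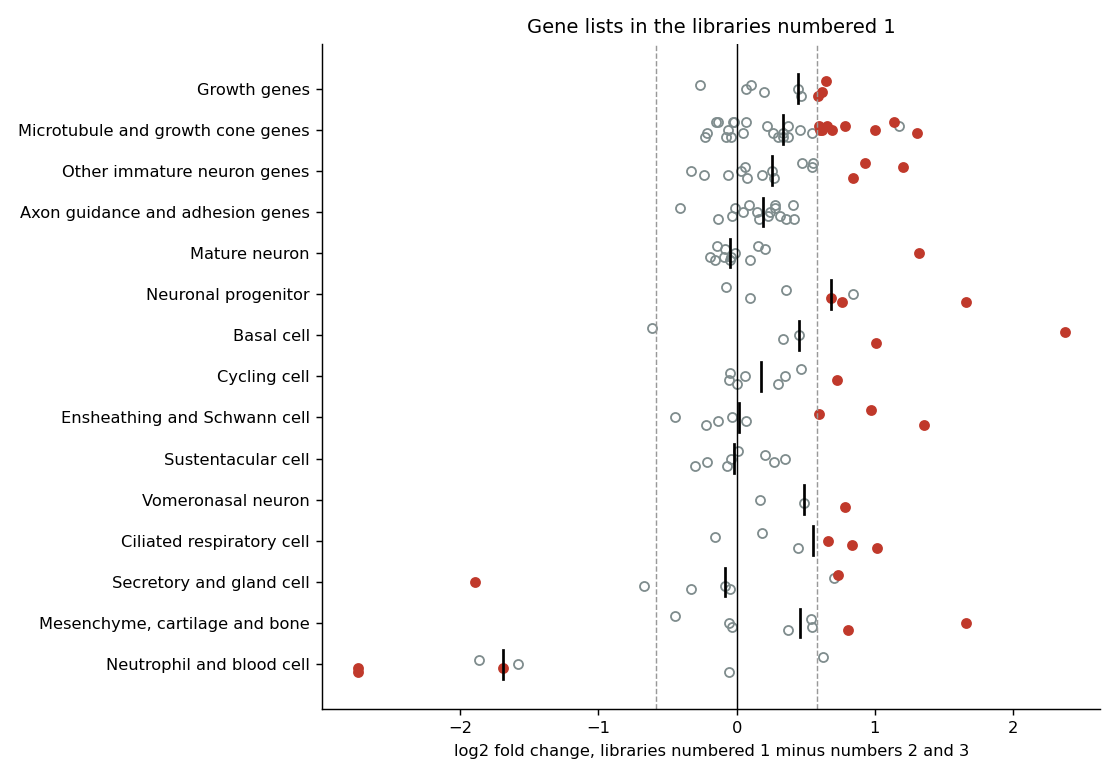
Log2 fold changes of the genes of each list between the libraries numbered 1 and those numbered 2 and 3 (x axis), 1 point per gene with filled red points for genes called, black bars for the list median and dashed lines at 1.5-fold. The medians of the growth genes (0.44) and the progenitor markers (0.68) lie to the right of 0, that of the mature neuron markers (-0.05) lies near it, and several lists of cells that are not neurons also hold called genes.

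Markers of the stages before and after the growth phase were set beside these values. The counts called are to be read beside the 5.42% of all genes called higher in the libraries numbered 1 and the 3.52% called lower. Of 12 mature OSN markers, 1 was called higher (Gng13, 1.32 on the log2 scale) and 0 lower. Their median was -0.05 (0.0065 without homo replicate 1). Omp differed by -0.05 (edgeR adjusted p = 0.675), Gnal by -0.04, Stoml3 by -0.16 and Cnga2 by -0.08, and none of these 4 passed. Without the fold limit, 2 of the 12 passed the adjusted p upwards (17.0% of all genes) and 1 downwards (14.7%). Besides Gng13 these were Rtp1 (0.20, edgeR adjusted p = 0.0334) and Ano2 (-0.19, adjusted p = 0.0472), named here because of their values. The summed level of the list was 7542 to 8085 CPM in the libraries numbered 1 and 7425 to 8574 in the others, so the ranges overlapped. Of 7 neuronal progenitor markers, 3 were called higher and 0 lower (median 0.68, and 0.32 without homo replicate 1), namely Neurog1, Neurod1 and Sox2. The sum of the list was 325 to 343 CPM in the libraries numbered 1 and 215 to 247 in the others. Neurod1, a transcription factor gene of late progenitors, differed by 0.68 (edgeR adjusted p = 0.00188), Sox2 by 0.76 (adjusted p = 1.19e-04), Kit by 0.36 (adjusted p = 0.00263) and Ezh2 by 0.10 (adjusted p = 0.535). In homo against WT 0 genes of either list were called.

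Markers of other cells of the dissected tissue were counted in the same way, to be read beside the 5.42% of all genes called higher and the 3.52% called lower. Called higher were 2 of 5 basal cell markers, 3 of 6 of ciliated respiratory cells, 2 of 8 of mesenchyme, cartilage and bone, 3 of 8 of ensheathing and Schwann cells and 1 of 8 cycling cell genes. The summed level of the mesenchyme, cartilage and bone list was 10903 to 11723 CPM in the libraries numbered 1 and 6654 to 8394 in the others, with no overlap. Most of this sum came from the collagen genes Col1a2 and Col1a1 (mean CPM 4237 and 3524). Of the 8 markers, 5 had a log2 fold change above 0. Bglap (-0.45), Lum (-0.06) and Dcn (-0.03), named here because of their values, lay below 0 and did not pass the adjusted p. The sum of the ciliated list was 529 to 581 CPM against 279 to 448. For basal cells the sums were 161 to 254 and 86.4 to 158 CPM. Of 4 vomeronasal neuron markers, 3 were tested and 1 was called higher (Gnai2). The list sum was 677 to 688 CPM against 439 to 485, nearly all of it from Gnao1 and Gnai2 (mean CPM 393.5 and 136.7). Trpc2, the defining ion channel gene, had 0 counts in every library, as did 2 of the 9 neutrophil and blood cell markers. Whether a count of 0 reflects the tissue or the counting was not tested. Of 8 sustentacular cell markers 0 were called, and their sums overlapped at 7825 to 8309 and 5766 to 9809 CPM. Of 7 secretory and gland cell markers 1 was called higher (Sox9) and 1 lower (Obp1a; 0 lower without het replicate 1 or homo replicate 1, and 2 lower without WT replicate 3), with sums of 6744 to 7115 and 6043 to 10866 CPM. Of the neutrophil and blood cell markers 3 of 7 tested were called lower (S100a8, S100a9 and Ptprc), with sums of 715 to 1049 and 317 to 3563 CPM. The sums of the cycling cell list were 688 to 740 and 460 to 695 CPM, and those of the ensheathing and Schwann cell list were 369 to 390 and 332 to 410 CPM. Without homo replicate 1, 1 ciliated and 1 ensheathing or Schwann cell marker were called higher and 0 neutrophil and blood cell markers lower, and without WT replicate 1 the last count was also 0. That count was 5 without WT replicate 2 or WT replicate 3 and in DESeq2, and 1 in limma-voom. In homo against WT 0 markers of these lists were called. The part of other cell types in the higher levels of the growth genes was not tested.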

How the data were processed

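RNA from whole MOE was extracted with an RNeasy kit, and strand-specific polyA libraries were made with a NEBNext kit. The submitters' processing notes name Trimmomatic 0.36, HISAT2 2.1.0, featureCounts of Subread 1.6.2, DESeq2 1.20.0 and the build mm10 (GRCm38). The annotation release, strand option and treatment of shared reads are not given in the sources used here. The authors deposited raw counts per gene and a signal of normalized counts, each raw count divided by 1 size factor per library. Raw counts were scaled by TMM and tested in edgeR 4.0.16 (quasi-likelihood test, R 4.3.3), with genotype in the model and a minimum sum of 10 counts per gene over all libraries. A gene was called at a Benjamini-Hochberg adjusted p under 0.05 over all 19775 genes and a fold over 1.5, and the test of any genotype had no fold limit. The biological coefficient of variation was 23.3%, and 16.9% with a term for library number 1. A count of 3 equals 0.0928 to 0.147 CPM per library, which covers counting error only. Alternatives used DESeq2 1.42.0 and limma 3.58.1 (limma-voom), other scalings and filters, and each library left out.

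The members, lists and comparisons were chosen with earlier results of these data known. All 9 members were named whatever their values, with up to 4 genes of the highest mean CPM in each list of pathway, mature neuron and progenitor genes and the 5 genes nearest to the members' mean profile. Genes called in a list, and others said to be so, were named after their values were seen. Same-numbered libraries deviated together over 16156 genes with correlations of 0.682, 0.457 and 0.586 between WT and het and 0.807, 0.36 and 0.195 between het and homo. Between WT and homo they were 0.532, 0.32 and -0.0854. With a limit of 0.1 on same-numbered libraries, pairing by number was accepted for het with either other group and not for WT with homo. Between WT and het, the same number gave the highest correlation in each case. Between het and homo, het replicate 2 correlated at 0.583 with homo replicate 3. There het replicate 3 correlated at 0.527 with homo replicate 2. Both values exceed those of the same numbers, so numbers 2 and 3 did not pair by number between het and homo. Of the progenitor markers, 1 is not reported here.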

Additional observations from a re-analysis of the deposited data

How the results depend on the processing

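The members' results were recomputed under each alternative, giving 901 values for 49 results, of which 827 had the same sign and call as reported (or, where no test applied, stayed within the spread). In the genotype comparisons 0 of 9 members were called under every alternative, the replicate block included, where the median log2 fold change was 0.16 in homo against WT, 0.09 in het against WT and 0.05 in homo against het. The block therefore changed no call. The changes of sign lay among values not called. When 1 library at a time was left out, the log2 fold change in homo against WT ranged over -0.071 to 0.46 for Gap43, -0.033 to 0.52 for Gng8, -0.046 to 0.22 for Stmn1, -0.030 to 0.16 for Dpysl3, -0.077 to 0.42 for Dpysl5 and -0.054 to 0.27 for Crmp1. In het against WT it ranged over -0.14 to 0.39 for Gap43, -0.13 to 0.42 for Gng8, -0.068 to 0.20 for Stmn1, -0.034 to 0.20 for Stmn2, -0.093 to 0.32 for Tubb3, -0.029 to 0.16 for Dpysl3, -0.16 to 0.38 for Dpysl5 and -0.17 to 0.23 for Crmp1. In homo against het it ranged over -0.10 to 0.26 for Gap43, -0.095 to 0.28 for Gng8, -0.0077 to 0.038 for Stmn1, -0.14 to 0.028 for Dcx, -0.027 to 0.24 for Tubb3, -0.066 to 0.069 for Dpysl3, -0.18 to 0.30 for Dpysl5 and -0.10 to 0.24 for Crmp1. For Dpysl3 in homo against het, a value of 0.0012 became -0.0070 with DESeq2 size factors and also in DESeq2, -0.0015 with library totals, -0.0046 with no filter, -0.0030 with filterByExpr, -0.0045 with only the genotypes compared and -0.0011 with only the libraries numbered 2 and 3, an alternative added after seeing the data. Leaving out 1 library moved the log2 ratio of Gap43 to Omp over -0.089 to 0.39 in homo against WT, -0.12 to 0.36 in het against WT and -0.18 to 0.20 in homo against het.

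For the libraries numbered 1, the number of members called ranged from 1 to 3 when 1 library was left out. It was 1 (Dpysl5) without WT replicate 1 or WT replicate 3 and 2 without het replicate 3. The log2 fold change of Stmn2 then ranged over -0.031 to 0.14. Gap43, at 0.59 beside a limit of 1.5-fold, fell under the limit with library totals (0.57), with no filter (0.58) and with genotype left out (0.58), and its adjusted p stayed under 0.05 in each. The cause of these changes was not tested. The 95% interval of Dpysl5 in homo against WT reached 1.68-fold as reported, 1.28-fold with the replicate block and 1.28-fold with a term for the libraries numbered 1.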
